A study of Mus musculus with 12 samples.

Results

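Whole-lung RNA was compared between 4 mice that had received L-NAME and a high-fat diet for 2 weeks and 4 control mice taken at 0 weeks. The members were chosen by the samples' labels alone, as the 8 libraries of these 2 groups out of 12 libraries of lung RNA in the series, and all genes were described. All mice were C57BL6/J, with no transgene or other allele named in the labels. L-NAME was dissolved in the drinking water at 0.5 g/L and the diet held 60% lipid. The third group of 4 mice received the same combination for 5 weeks, entered the fit as a source of the spread between mice, and is quoted beside single genes. Each library came from a separate, numbered mouse, so the spread between libraries includes the spread between animals. The labels name no ages, litters or collection dates. The study's title names myeloid IL-1β, pulmonary vascular remodelling and heart failure with preserved ejection fraction, and a single-cell experiment of the series was not analysed here.

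L-NAME blocks the nitric oxide synthases, the enzymes that make nitric oxide from arginine. Nitric oxide relaxes vascular smooth muscle through soluble guanylate cyclase and cGMP, and its loss raises blood pressure. Combined with a high-fat diet, L-NAME is used in mice as a model of heart failure with preserved ejection fraction, in which metabolic and haemodynamic load act together and the lung circulation is affected secondarily. The lung holds airway and alveolar epithelium, a dense capillary bed, smooth muscle of airways and vessels, fibroblasts and resident macrophages. In RNA from the whole organ, fewer cells of a type and less RNA per cell cannot be told apart. The controls were not kept on study for 2 weeks, and both agents were given together, so diet, L-NAME and time on study cannot be told apart.

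Values are in CPM, reads of a gene scaled to the library total, as the authors deposited them, and differences are between group means of log2(CPM + 1), 2 weeks minus control, a scale that understates changes of genes of low level. The 8 libraries held between 26080000 and 31940000 reads assigned to genes, as read from the smallest step between low CPM values. Lung markers were high in both groups. Sftpc, the surfactant protein C gene of alveolar type 2 cells, averaged 11410 ± 1301 CPM in controls and 12820 ± 979 CPM at 2 weeks (SD, n = 4). Pecam1, an endothelial adhesion gene, averaged 849.5 ± 64.7 and 831 ± 22.3 CPM (SD, n = 4). Transcripts of neighbouring tissues separated some libraries from the rest. The 12 skeletal muscle markers summed to 12280 CPM in 2-week replicate 3 and 557 CPM in control replicate 2, against 18.5 to 63.5 CPM in the other 6. Myh4, a myosin heavy chain of fast skeletal fibres, stood at 0.0935, 0.658, 2749 and 0.0001 CPM in 2-week replicates 1 to 4 and 0.0001, 15.6, 0.0001 and 0.0001 CPM in control replicates 1 to 4, where 0.0001 is the value of a gene without reads. Adipocyte markers summed to 3572 CPM in control replicate 2 and to between 308 and 766 CPM in the others. Control replicate 2 also held the most immunoglobulin RNA, with Ighm at 1049 CPM against at most 187 CPM elsewhere among the 8. Alb, a liver gene named after its values were seen, stood at 51.2 CPM in control replicate 4 and at most 5.89 CPM in the other 7. The part of these transcripts in the differences below was not tested, and counts of list members are also given without the 2 libraries with skeletal muscle transcripts, an alternative chosen after seeing the data.

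**Figure D1:**
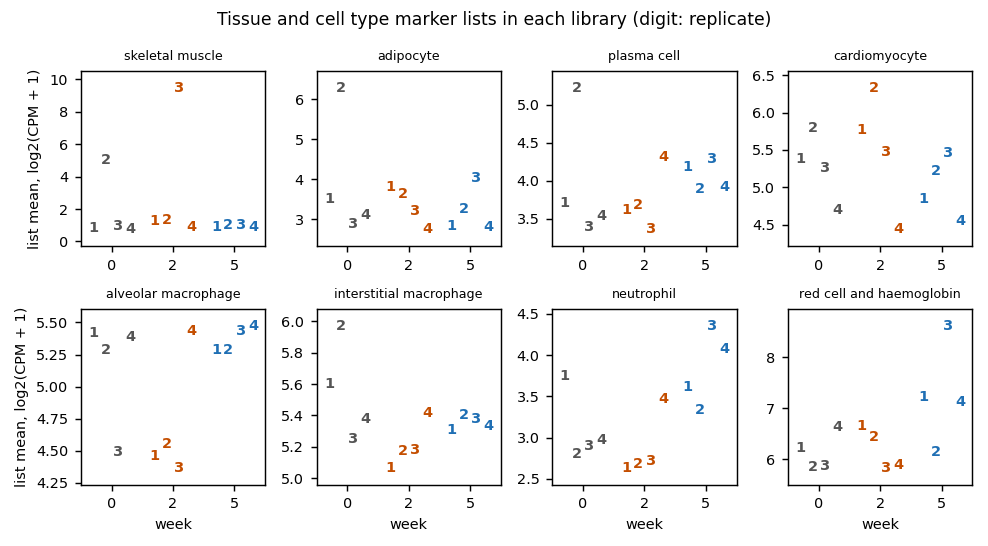
Mean log2(CPM + 1) of 8 marker lists in each of the 12 libraries, by week, each digit giving the replicate number. Skeletal muscle markers stand at 9.49 in 2-week replicate 3 and 5.02 in control replicate 2, and alveolar macrophage markers form a high and a low band, each of which holds both control and 2-week libraries.

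The first question is which lung genes differ early in the combined treatment. No gene passed after adjustment. Of 15562 genes tested, 0 had an adjusted p under 0.05 (0.0% of genes, limma with Benjamini-Hochberg adjustment), and the smallest adjusted p was 0.0835, shared by 9 genes. At an unadjusted p under 0.05 there were 1438 genes (9.24%), of which 890 were higher (5.72%) and 548 lower (3.52%) at 2 weeks. Groups did not overlap for 828 genes, with 524 entirely above the controls (3.37%) and 304 entirely below (1.95%). These shares are the background against which counts of gene lists are read below. The median difference over all genes was 0.02, and 55.1% of genes were higher. Among genes at an unadjusted p under 0.05, 61.9% were higher as deposited, but 47.4% after median-of-ratios scaling (674 higher, 747 lower) and 48.0% after quantile normalization (650 higher, 703 lower). Differences of 2-fold or more at an unadjusted p under 0.05 were seen in 9 genes higher and 11 lower. That count of 1438 became 943 with control replicate 4 left out, 945 with 2-week replicate 3 left out, 2275 with 2-week replicate 4 left out and 743 with both libraries holding skeletal muscle transcripts left out.

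**Figure D2:**
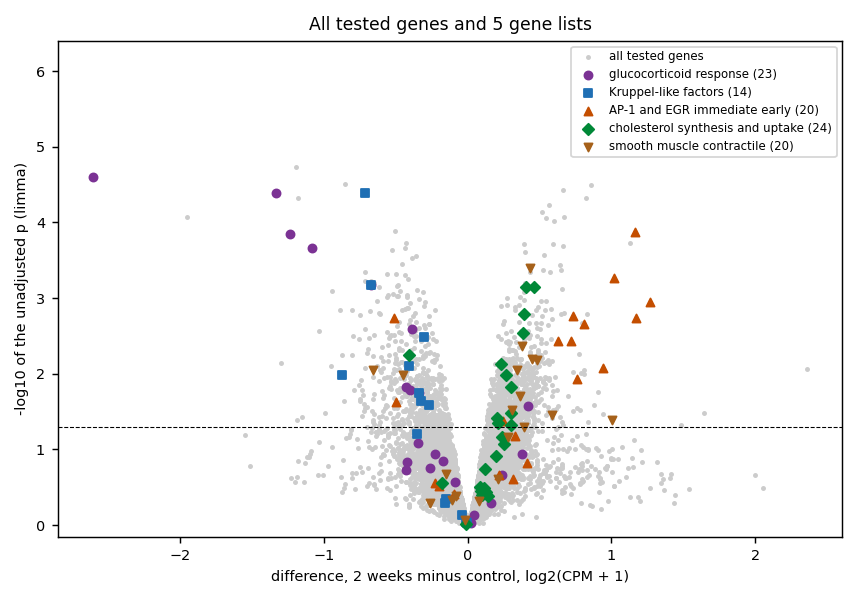
Difference between 2 weeks and control (x axis, log2(CPM + 1)) against -log10 of the unadjusted limma p (y axis) for the 15562 tested genes, with 5 gene lists in colour and a dashed line at the unadjusted threshold. Glucocorticoid response genes and Kruppel-like factors lie mostly to the left, and AP-1 and EGR, cholesterol and smooth muscle genes mostly to the right.

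The genes with the smallest p were led on the lower side by Map3k6, Zbtb16 and Slc26a4. Picking genes by p in this comparison favours groups without overlap, so the separations described for them are no separate support. Positions are given as deposited, and the table names no genome build. Map3k6 encodes a stress-activated kinase of the MAP kinase cascade (chromosome 4, 132968129 to 132980240). It stood at 72.9, 80.2, 67.5 and 73.4 CPM in control replicates 1 to 4 and at 43.7, 31.5, 32.4 and 22.1 CPM in 2-week replicates 1 to 4. Every 2-week library lay below every control, and the difference was -1.19 ± 0.18 (log2, SE, limma adjusted p = 0.0835). Zbtb16 encodes a zinc finger repressor that glucocorticoids induce (chromosome 9, 48565597 to 48747522). Its controls were spread widely, at 133, 198, 89.3 and 77.3 CPM, and its 2-week libraries held 28.3, 16.7, 21.9 and 10.5 CPM. This was the largest difference among the genes at an adjusted p under 0.1, -2.60 ± 0.41 (log2, SE, limma adjusted p = 0.0835), with no overlap. Slc26a4 encodes pendrin, an epithelial anion exchanger (chromosome 12, 31569826 to 31609968). It was a gene of low level, 3.38, 3.28, 3.89 and 3.5 CPM in controls and 1.56, 1.42, 1.25 and 1.79 CPM at 2 weeks, and the groups were apart (-0.85 ± 0.14, log2, SE, limma adjusted p = 0.0835).

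Angptl4 encodes a secreted inhibitor of lipoprotein lipase that fasting and fatty acids induce (chromosome 17, 33992724 to 34000804). Controls stood at 35.6, 74, 51.2 and 74.4 CPM and 2-week libraries at 30.4, 26.4, 19.6 and 22.1 CPM. The highest 2-week library lay below the lowest control, which was itself well under the other controls, and the difference was -1.18 ± 0.20 (log2, SE, limma adjusted p = 0.0835). At 5 weeks Angptl4 stood at 51, 55.5, 52.4 and 51.6 CPM, within the range of the controls. Nr4a3, an orphan nuclear receptor gene, stood at 19.3, 31.1, 26.2 and 35.3 CPM in controls and 5.61, 9.25, 3.84 and 7.8 CPM at 2 weeks. All 4 treated libraries held less than the lowest control (-1.95 ± 0.35, log2, SE, limma adjusted p = 0.0983). The other lower genes of this group were apart from the controls in all 4 libraries too. Hif3a, a hypoxia-inducible factor subunit that limits the others, averaged 2.62 ± 0.977 against 6.49 ± 0.925 CPM (SD, n = 4). Fas, the death receptor gene, averaged 27.9 ± 1.7 against 38 ± 2.63 CPM (SD, n = 4). Sgms1, a sphingomyelin synthase gene, averaged 90.4 ± 9.89 against 129 ± 17.2 CPM (SD, n = 4). Spsb1, Erlin1, Carhsp1 and Coro2a had differences of -0.52, -0.44, -0.39 and -0.36 (log2). For these 7 genes the limma adjusted p lay between 0.124 and 0.154.

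On the higher side the smallest p belonged to Itgb6, the β6 integrin subunit of epithelial cells, which pairs with αv and activates latent TGF-β (chromosome 2, 60428636 to 60552987). Itgb6 stood at 21.9, 16.9, 23.2 and 20.2 CPM in controls and 36.5, 32.9, 31.6 and 30.6 CPM at 2 weeks. Every treated library was above every control (0.66 ± 0.11, log2, SE, limma adjusted p = 0.0835). Glp1r encodes the receptor of the incretin GLP-1, expressed in lung endothelium (chromosome 17, 31120791 to 31159765). Controls ranged over 140.4, 140.2, 182 and 159.6 CPM, whereas the 2-week libraries were close together at 233, 231, 224 and 230.2 CPM. The difference was 0.57 ± 0.10 (log2, SE, limma adjusted p = 0.0926), and 5-week libraries stood at 187, 182, 145 and 188 CPM. Tfrc, the transferrin receptor gene for cellular iron uptake, stood at 81.8, 78.7, 67.9 and 72.8 CPM in controls and 110.5, 91, 119 and 113 CPM at 2 weeks, again without overlap (0.52 ± 0.09, log2, SE, limma adjusted p = 0.0983). Hes2, a repressor of the basic helix-loop-helix family, was near 2.71 CPM in controls and 5.52 CPM at 2 weeks (SD 0.684 and 0.494, n = 4). Il12a, the p35 subunit shared by IL-12 and IL-35, stood at 1.8, 1.29, 1.25 and 1.51 CPM in controls and 3.24, 2.63, 2.98 and 2.82 CPM at 2 weeks. All treated libraries of Hes2 and Il12a exceeded all controls, with limma adjusted p = 0.0835 and 0.0983.

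The other higher genes of this group were apart from the controls as well. Acoxl, an acyl-CoA oxidase-like gene, averaged 40.7 ± 2.94 against 27.7 ± 3.79 CPM (SD, n = 4). Pex11g, a peroxisome division gene, averaged 9.22 ± 0.926 against 5.74 ± 0.705 CPM (SD, n = 4). Cyp4f39, a cytochrome P450 gene, averaged 5.19 ± 0.711 against 2.9 ± 0.288 CPM (SD, n = 4). Of endothelial genes, Clec14a, which encodes a C-type lectin of vessel walls, stood at 473, 422, 509.7 and 429.7 CPM in controls and 604, 598, 596 and 602 CPM at 2 weeks. The 4 treated values of Clec14a spanned less than the controls did, and all exceeded them (0.39 ± 0.08, log2, SE, limma adjusted p = 0.138). C2cd4b stood at 16.4, 7.59, 19.6 and 10.1 and 27.4, 33.2, 29 and 26.1 CPM. Il17re, a receptor chain for IL-17C on epithelium, had a difference of 0.40 ± 0.08, Eva1a of 0.59 ± 0.12 and Ankrd63 of 0.53 ± 0.11 (log2, SE). For these 8 genes the limma adjusted p lay between 0.0983 and 0.15. A predicted gene among the 15 with the smallest p on this side was not named.

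**Figure D3:**
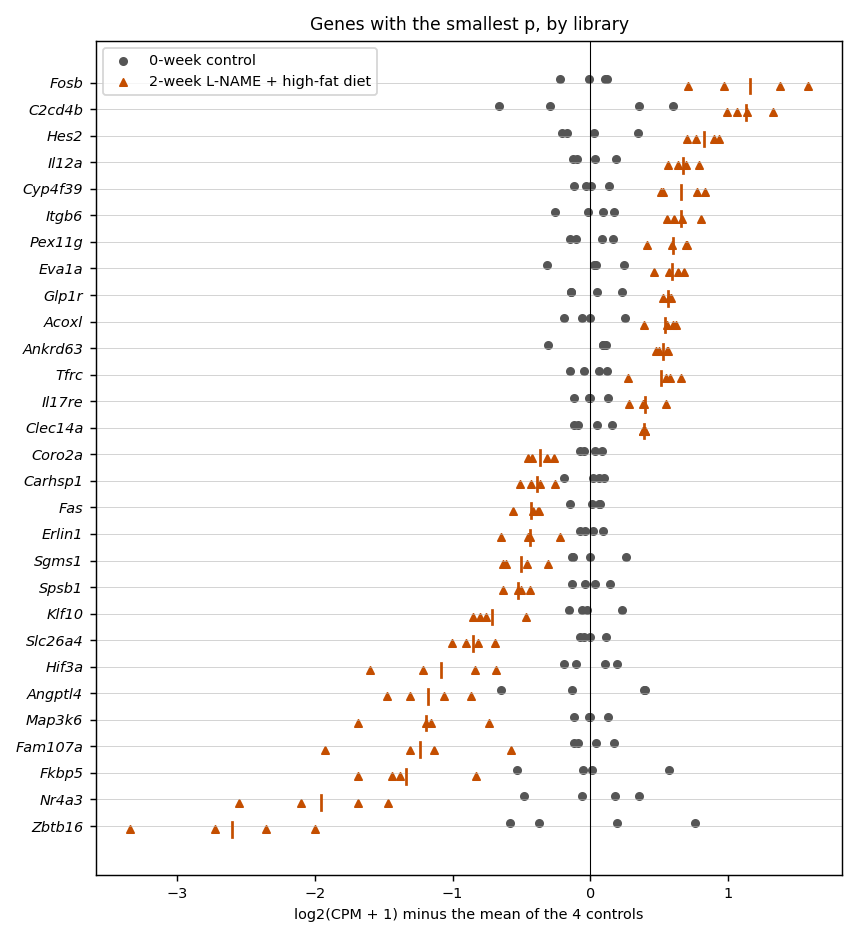
Log2(CPM + 1) of each control (circle) and 2-week library (triangle) minus the mean of the 4 controls, for the 29 named genes with the smallest p, with a bar at the 2-week mean. For each gene shown the 4 triangles lie all above or all below the 4 circles, from -2.60 for Zbtb16 to 1.16 for Fosb at the mean. Picking by smallest p favours such separation.

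Nitric oxide synthases, the enzymes that L-NAME blocks, did not pass. Nos3, the endothelial enzyme, stood at 30.1, 34.5, 36.5 and 35.6 CPM in controls and 32.1, 34.7, 27.6 and 24.4 CPM at 2 weeks, with overlapping groups (-0.20 ± 0.15, log2, SE, limma adjusted p = 0.658). Nos2, the inducible enzyme, averaged 4.5 ± 1.21 and 5.49 ± 0.815 CPM (SD, n = 4). Nos1, the neuronal enzyme that skeletal muscle also makes, stood at 0.312, 0.592, 17.7 and 0.0665 CPM in 2-week replicates 1 to 4 and at most 0.952 CPM in controls. The high value is in 2-week replicate 3, the library with most skeletal muscle RNA, and the highest control is the other library with such RNA. In the list of 24 genes of nitric oxide and cGMP signalling, 2 were higher and 2 lower at an unadjusted p under 0.05. The shares over all genes were 5.72% and 3.52%, and the list median was -0.01. Npr3, the clearance receptor of natriuretic peptides, stood at 105, 157, 169 and 279 CPM in controls and 79, 72.6, 80.1 and 94.1 CPM at 2 weeks. Every treated library was below every control, and the controls differed among themselves by more than the treated libraries did (-1.03 ± 0.28, log2, SE, limma adjusted p = 0.302). Arg2, an arginase that competes for arginine, was apart on the lower side (3.73 ± 0.71 against 5.73 ± 1.13 CPM, SD, n = 4). Npr1, the guanylate cyclase receptor of the same peptides, averaged 168 ± 1.59 against 149.7 ± 12.7 CPM, and Nosip, a binding partner of Nos3, 53.5 ± 3.82 against 46 ± 2.86 CPM (SD, n = 4).

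Glucocorticoid response genes were mostly lower at 2 weeks. These are genes that the ligand-bound glucocorticoid receptor activates in many tissues, and adrenal corticosterone is its ligand in mice. Of 23 members tested, 9 were lower and 1 higher at an unadjusted p under 0.05, against 3.52% and 5.72% of all genes. The groups were apart for 6 members, all lower, and the list median was -0.34 against 0.02 over all genes. Fkbp5, a co-chaperone that restrains the receptor (chromosome 17, 28618068 to 28736501), stood at 71.9, 106, 68.4 and 48.9 CPM in controls and 39.5, 25.5, 26.7 and 21.4 CPM at 2 weeks. All 4 treated libraries were below all controls (-1.33 ± 0.22, log2, SE, limma adjusted p = 0.0835), and 5-week libraries stood at 34.8, 40.5, 25.7 and 34.3 CPM. Fam107a, an actin-binding gene that stress hormones induce, stood at 40.1, 44, 48.2 and 39.3 CPM in controls and 28.4, 18.9, 16.6 and 10.5 CPM at 2 weeks. Again no treated library reached the lowest control (-1.24 ± 0.23, log2, SE, limma adjusted p = 0.124). Mertk, a receptor for the clearance of dead cells, averaged 48.3 ± 2.26 against 63.5 ± 2.59 CPM, without overlap (SD, n = 4). Zbtb16, Hif3a and Klf15 were the other members apart. Lcn2, an iron-binding acute phase gene, overlapped between groups at 133, 105, 89.7 and 95.7 and 95.4, 75.1, 59 and 91.4 CPM. The count of lower members lay between 8 and 11 over the alternatives and was 8 without the libraries with skeletal muscle transcripts. The median was -0.17 without 2-week replicate 4 and -0.22 with library weights. Among the 21 members matched to RefSeq promoters (build GRCm38.p6, 250 bases before to 50 after a start), the receptor's core hexamer TGTTCT on either strand was found in 21.2% of 33 windows, against 19% of all 32851 windows.

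Kruppel-like factors, zinc finger regulators of endothelial, epithelial and metabolic programmes, had 14 of 14 tested members lower as deposited, the smallest difference being -0.01. At an unadjusted p under 0.05, 8 of the 14 were lower and 0 higher, against 3.52% and 5.72% of all genes. Klf15 and Klf9, both among the 8, also belong to the glucocorticoid response list. On the lower side 4 were apart from the controls, against 1.95% of all genes. The median was -0.31, and the lower direction of the median held in all 23 alternatives. Leaving out a 5-week library, fitting only the 8 libraries compared or changing the variance moderation could not change this median. Klf10, an early gene of TGF-β signalling (chromosome 15, 38291707 to 38300950), stood at 51.5, 55.2, 56.6 and 67.6 CPM in controls and 41.3, 31.4, 33.6 and 32.6 CPM at 2 weeks. The groups did not overlap (-0.72 ± 0.12, log2, SE, limma adjusted p = 0.0835). Klf15, a glucocorticoid-induced regulator of fasting metabolism, stood at 67.4, 72.7, 67.3 and 85.7 CPM in controls and 49.4, 51.7, 48.3 and 34.6 CPM at 2 weeks, with 2-week replicate 4 the lowest of the 8. Klf4, an endothelial and epithelial barrier factor, was spread over 218, 407, 485 and 519 CPM in controls and 176, 289, 165 and 234 CPM at 2 weeks. Control replicate 1 lay inside the treated range, and the difference was -0.87 ± 0.29 (log2, SE, limma adjusted p = 0.41). Klf3 averaged 160.3 ± 14.4 against 216 ± 42.8 CPM, Klf16 19.5 ± 1.74 against 24.2 ± 0.512 CPM, both without overlap, and Klf9 278 ± 27.5 against 354 ± 59.7 CPM with overlap (SD, n = 4). Only 5 members were lower at that p with control replicate 4 left out, and 5 with the 2 libraries holding skeletal muscle transcripts left out.

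AP-1 and EGR immediate early genes were mostly higher. They encode transcription factors and messenger RNA regulators that are induced within minutes of a stimulus and need no new protein. Of 20 members tested, 11 were higher and 2 lower at an unadjusted p under 0.05, against 5.72% and 3.52% of all genes. On the higher side 7 were apart and on the lower 1, against 3.37% and 1.95% of all genes, and the median was 0.52. Fosb, an AP-1 subunit gene, stood at 8.22, 10.7, 10.6 and 9.65 CPM in controls and 16.6, 31.2, 20.1 and 26.9 CPM at 2 weeks. Every treated library was higher than every control (1.16 ± 0.22, log2, SE, limma adjusted p = 0.124). Fos, also an AP-1 subunit gene, stood at 130.0, 53, 156 and 143 CPM in controls and 204, 399.9, 210.4 and 309.8 CPM at 2 weeks, with control replicate 2 far below the other controls. Egr1, a zinc finger factor, stood at 255, 112, 299.5 and 260.0 CPM in controls and 396, 692, 412 and 504 CPM at 2 weeks, with the same control at the low end. In both genes the treated libraries lay above the highest control. Ccn1, a matricellular growth factor target, stood at 259, 193, 345 and 219 CPM in controls and 382, 691, 416 and 586 CPM at 2 weeks, apart by a narrower margin (1.02 ± 0.22, log2, SE, limma adjusted p = 0.197). Ier2 averaged 278 ± 61.3 against 169 ± 47.7 CPM, with overlap (SD, n = 4). Maff, a small MAF factor of the same list, went the other way, at 36.6 ± 4.28 against 52.9 ± 8.88 CPM (SD, n = 4). The higher count lay between 10 and 14 over the alternatives and was 10 without the libraries with skeletal muscle transcripts. At 5 weeks, against the same controls, Fosb, Fos and Egr1 differed by 0.89, 1.16 and 0.78 (log2).

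Serum response factor binds the CArG box in promoters of immediate early and of smooth muscle genes, so both lists were searched for it on either strand of the RefSeq promoter windows. The box was found in 1.63% of all 32851 windows, in 28.6% of 21 windows of 15 matched immediate early genes (Egr2, Srf and Zfp36, with 4 of the 6 matching windows being alternative starts of Egr2) and in 6.25% of 16 windows of 15 matched smooth muscle genes (Myl9). A match describes the letters of these windows only. Egr2 averaged 14.8 ± 5.74 against 7.95 ± 1.7 CPM and Zfp36 408 ± 95.9 against 250.4 ± 66.1 CPM (SD, n = 4). The windows of Zfp36, an immediate early gene for a protein that destabilises inflammatory messages, and of Myl9, the regulatory light chain of smooth muscle myosin, show the box in each list, in capitals, 5′ to 3′ on the strand of the gene. The box begins at -58 from the start of Zfp36 (chr7:28379179-28379478, minus strand, GRCm38.p6) and at -161 from that of Myl9 (chr2:156775214-156775513, plus strand, GRCm38.p6).
Zfp36: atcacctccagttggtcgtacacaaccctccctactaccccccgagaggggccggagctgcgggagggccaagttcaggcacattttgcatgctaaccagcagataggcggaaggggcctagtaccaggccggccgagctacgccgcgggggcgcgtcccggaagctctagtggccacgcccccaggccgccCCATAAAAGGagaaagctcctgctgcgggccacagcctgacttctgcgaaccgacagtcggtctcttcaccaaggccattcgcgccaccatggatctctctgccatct
Myl9: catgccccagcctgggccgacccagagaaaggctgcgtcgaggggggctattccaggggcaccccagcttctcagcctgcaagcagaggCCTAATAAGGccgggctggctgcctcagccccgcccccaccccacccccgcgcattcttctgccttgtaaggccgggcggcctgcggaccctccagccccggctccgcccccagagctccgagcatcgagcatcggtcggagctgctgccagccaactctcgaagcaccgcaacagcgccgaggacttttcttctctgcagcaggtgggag

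Of smooth muscle contractile genes, 13 of 20 were higher at 2 weeks, where 55.1% of all genes were higher. They encode the actin, myosin and calponin family proteins of airway and vascular smooth muscle. Of 20 members tested, 10 were higher and 2 lower at an unadjusted p under 0.05, against 5.72% and 3.52% of all genes. On the higher side 3 were apart and on the lower 1, against 3.37% and 1.95% of all genes, and the median was 0.30. Acta2, smooth muscle α-actin (chromosome 19, 34218490 to 34232990), stood at 274, 233, 289 and 251 CPM in controls and 391, 368, 343 and 313 CPM at 2 weeks. The lowest treated library was above the highest control (0.43 ± 0.09, log2, SE, limma adjusted p = 0.182), and 5-week libraries held 243, 275, 231 and 226 CPM. Tagln, an actin cross-linker, stood at 228, 203, 248 and 195 CPM in controls and 318, 277, 280.2 and 261 CPM at 2 weeks, also apart. Kcnmb1, the smooth muscle subunit of the calcium-activated potassium channel, averaged 9.34 ± 0.892 against 7.35 ± 0.966 CPM (SD, n = 4). Myl9 stood at 129.9, 111, 127 and 97.5 CPM in controls and 176, 145, 143 and 129 CPM at 2 weeks, where control replicate 1 exceeded 2-week replicate 4. Lmod1, an actin nucleator, stood at 35.1, 40.7, 49.5 and 25.4 CPM in 2-week replicates 1 to 4 against 25.9 ± 1.79 CPM in controls (SD, n = 4), and its highest value lay in the library with most skeletal muscle RNA. By library, the list mean was 6.41, 6.47, 6.44 and 6.37 in control replicates 1 to 4 and 6.63, 6.65, 6.79 and 6.34 in 2-week replicates 1 to 4 (log2(CPM + 1)), so 2-week replicate 4 lay below every control. The same library was the lowest of the 8 in ciliated cell markers (4.49, against 4.98 to 5.07 in 2-week replicates 1 to 3 and 4.51 to 4.77 in controls) and in cardiomyocyte markers (4.44, against 5.47 to 6.33 and 4.70 to 5.79). The part of these markers in the result was not tested. With control replicate 4 left out 6 members were higher at that p, and likewise 6 with both libraries holding skeletal muscle transcripts left out. At 5 weeks Acta2, Tagln and Myl9 differed from the same controls by -0.10, -0.02 and -0.10 (log2).

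**Figure D4:**
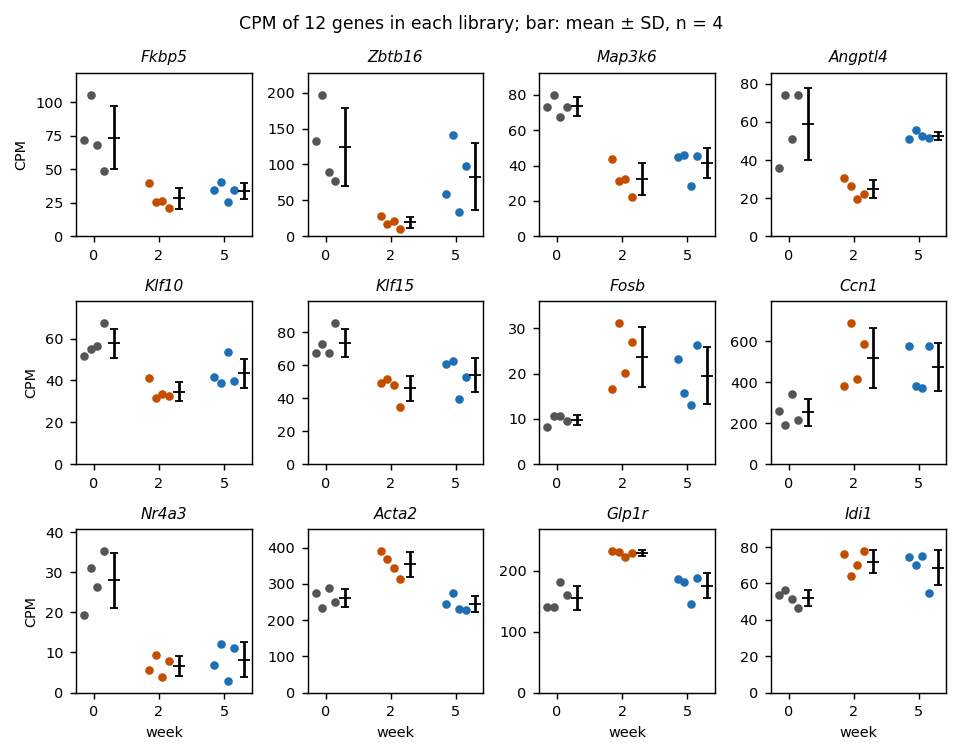
CPM of 12 genes in each library at 0, 2 and 5 weeks, with the mean and SD of each group of 4 beside the points. At 5 weeks Angptl4 and Acta2 overlap the controls, whereas the 5-week libraries of Fkbp5, Map3k6 and Nr4a3 lie below all controls.

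Cholesterol synthesis and uptake genes were mostly higher at 2 weeks. The pathway runs from acetyl-CoA over mevalonate and squalene to cholesterol, and SREBP2 activates most of its genes when cholesterol in the endoplasmic reticulum is low. Of 24 members tested, 21 were higher. At an unadjusted p under 0.05, 11 were higher and 1 lower, against 5.72% and 3.52% of all genes. On the higher side 9 were apart and on the lower 1, against 3.37% and 1.95% of all genes. The median was 0.21. Along the pathway, Hmgcs1, which makes HMG-CoA, stood at 90.8, 95.5, 96.1 and 84.6 CPM in controls and 113, 105, 98.6 and 114 CPM at 2 weeks. Idi1, the isomerase of the isoprenoid step, stood at 53.5, 56.5, 51.4 and 46.2 CPM in controls and 76.1, 63.9, 70.0 and 78 CPM at 2 weeks. All treated libraries of both genes were above all controls, with differences of 0.23 ± 0.07 and 0.46 ± 0.11 (log2, SE, limma adjusted p = 0.392 and 0.204). Fdps, the next enzyme, averaged 37.2 ± 3.53 against 27.9 ± 2.65 CPM, Sqle, which oxidises squalene, 42 ± 2.77 against 31.8 ± 3.12 CPM, and Msmo1, a sterol demethylase, 45.6 ± 3.69 against 34.7 ± 1.3 CPM (SD, n = 4). None of these 3 overlapped. Pmvk, phosphomevalonate kinase of the same pathway, was lower in every treated library (19.5 ± 0.856 against 26.5 ± 4.79 CPM, SD, n = 4). Leaving out control replicate 1 or control replicate 4 gave 7 higher members, and leaving out the libraries with skeletal muscle transcripts gave 12. One sterol regulatory motif, TCACNCCAC on either strand, was found in 1.24% of all promoter windows and in 1 of 20 windows of 17 matched members, that of Hmgcs1. The Hmgcs1 window (chr13:119690101-119690400, plus strand, GRCm38.p6) is shown as the only match, with the motif in capitals at -137 from the start.
Hmgcs1: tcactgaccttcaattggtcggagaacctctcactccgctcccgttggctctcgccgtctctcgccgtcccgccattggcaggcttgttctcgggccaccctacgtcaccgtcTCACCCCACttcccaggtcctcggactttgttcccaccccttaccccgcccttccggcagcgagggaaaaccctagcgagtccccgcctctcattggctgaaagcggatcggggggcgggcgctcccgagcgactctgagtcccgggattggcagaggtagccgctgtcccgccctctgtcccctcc

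Other lipid genes showed no such pattern. PPAR target and fatty acid oxidation genes had 0 of 28 higher and 1 lower at an unadjusted p under 0.05, the lower one being Angptl4. The shares over all genes were 5.72% and 3.52%. Fatty acid synthesis genes had 1 higher and 1 lower of 18 at that p and a list median of -0.16. Scd1, the main desaturase, stood at 1899, 5840, 819.7 and 1563 CPM in controls, highest in replicate 2 with its adipocyte RNA, and at 1091, 809, 839.5 and 1220 CPM at 2 weeks. Nuclear respiratory chain genes had 23 of 25 members higher but 0 at an unadjusted p under 0.05 (median 0.12), and the 13 genes of the mitochondrial genome likewise had 0 (median 0.11).

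**Figure D5:**
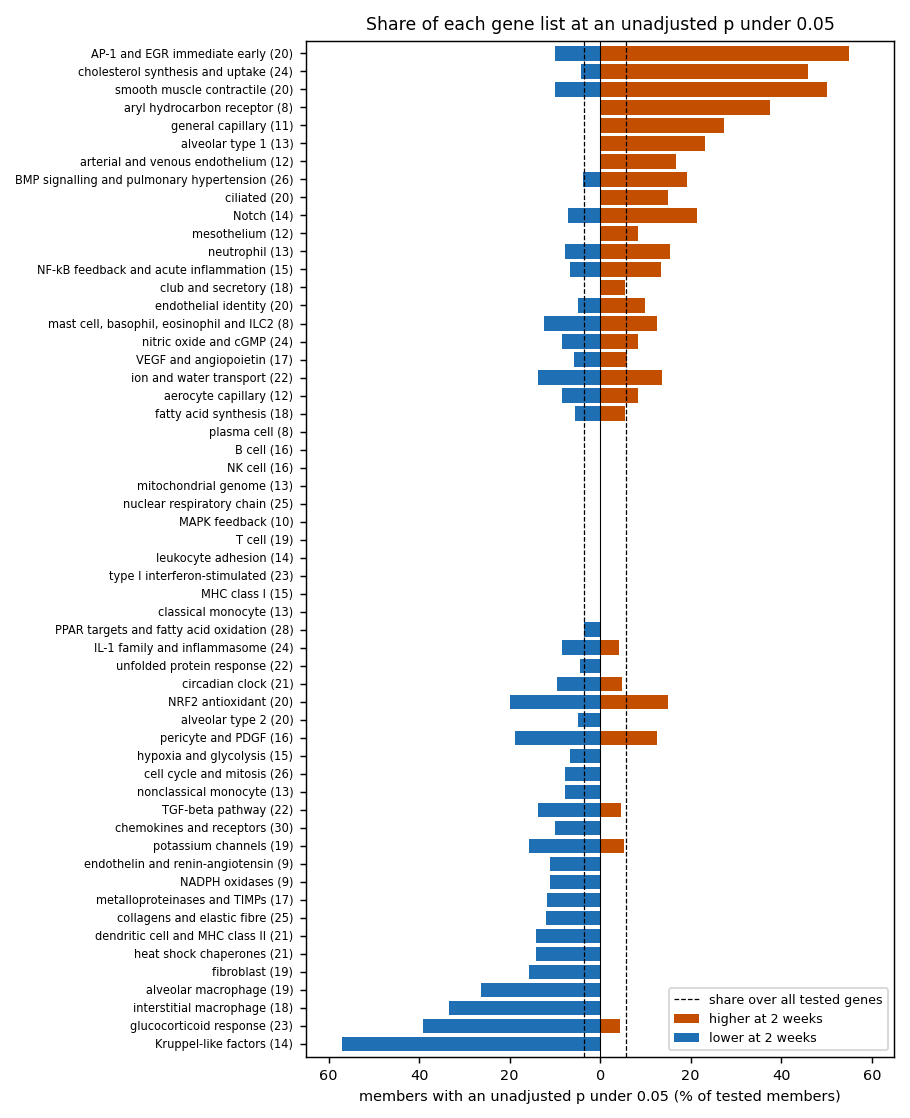
Share of the tested members of each list with at least 8 tested members that had an unadjusted p under 0.05, higher (right) or lower (left) at 2 weeks, with dashed lines at the shares over all genes, 5.72% and 3.52%. Lists of tissue admixture are left out, the number of tested members is in parentheses, and AP-1 and EGR genes and Kruppel-like factors stand at the extremes.

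Stress and xenobiotic lists differed in direction. Heat shock chaperones had 20 of 21 members lower, where 55.1% of all genes were higher. At an unadjusted p under 0.05, 3 were lower and 0 higher, against 3.52% and 5.72% of all genes, and 0 were apart. Hspa8, the constitutive HSP70, stood at 682, 879.8, 1002 and 1460 CPM in controls and 566, 754, 585 and 690.1 CPM at 2 weeks, and Hsph1, an HSP110, at 45, 55.7, 82.9 and 144 and 40.6, 55.6, 49.9 and 42.3 CPM. In both genes the highest library was control replicate 4, the one with liver transcripts, and control replicate 1 lay within the treated range. The list median was -0.15, and -0.07 without control replicate 4. The count was 10 without control replicate 1 and 5 without control replicate 2. Aryl hydrocarbon receptor genes had 3 of 8 higher at an unadjusted p under 0.05, against 5.72% of all genes. Cyp1a1, the receptor's most inducible target, stood at 1.57, 3.35, 17 and 4.1 CPM in controls and 40.5, 14.4, 13.5 and 75.7 CPM at 2 weeks, with control replicate 3 inside the treated range, and at 9.45, 5.85, 0.656 and 0.234 CPM at 5 weeks. That made 2.36 ± 0.76 (log2, SE, limma adjusted p = 0.4). With control replicate 3 left out, or both libraries holding skeletal muscle transcripts, 1 member was higher at that unadjusted p. NRF2 antioxidant genes split, with 3 of 20 higher and 4 lower at an unadjusted p under 0.05, against 5.72% and 3.52% of all genes. Gclc, the rate-limiting enzyme of glutathione synthesis, stood at 193, 172, 152 and 196 CPM in controls and 149, 132, 139 and 154 CPM at 2 weeks, with overlap. Nqo1, a quinone reductase, averaged 12.7 ± 2.6 against 9.24 ± 2.21 CPM (SD, n = 4). Clock genes at an unadjusted p under 0.05 were 1 of 21 higher, the output factor Dbp, and 2 lower, Nfil3 and Bhlhe40 (list median -0.07). Ndrg1, a hypoxia-responsive gene, was lower without overlap (42.8 ± 2.54 against 57.3 ± 2.56 CPM, SD, n = 4) and was the only one of 15 hypoxia and glycolysis genes at an unadjusted p under 0.05.

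Vascular signalling lists held genes on both sides. BMP signalling restrains the pulmonary vessel wall, and its receptor genes are mutated in pulmonary arterial hypertension. Of 26 genes of this list, 5 were higher and 1 lower at an unadjusted p under 0.05, against 5.72% and 3.52% of all genes. The list median was 0.04. Smad9, a BMP effector, stood at 13.5, 11.7, 10.8 and 13.9 CPM in controls and 17.2, 17, 15.6 and 17.6 CPM at 2 weeks, apart, and Id4, a BMP target, averaged 21.6 ± 1.23 against 17.6 ± 1.72 CPM, also apart (SD, n = 4). Bambi, a decoy receptor, Id3 and the endothelial receptor gene Acvrl1 had differences of 0.38, 0.29 and 0.21 (log2), whereas Id1 had -0.30. Leaving out control replicate 2 or 2-week replicate 2 gave 2 higher members, and leaving out control or 2-week replicate 1 gave 3. In the Notch list, 3 of 14 were higher and 1 lower at that p. The ligand gene Dll1 stood at 55.4, 83.7, 95.1 and 105 CPM in controls and 48.1, 49.7, 41.8 and 47.6 CPM at 2 weeks, apart on the lower side (-0.81 ± 0.20, log2, SE, limma adjusted p = 0.238). The endothelial ligand gene Dll4 was apart on the higher side (128 ± 3.86 against 108 ± 8.76 CPM, SD, n = 4), as was Hey2, a target repressor.

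Endothelial identity genes had 2 of 20 higher and 1 lower at an unadjusted p under 0.05, near the background of 5.72% and 3.52%. Kdr, the main VEGF receptor, stood at 435, 399, 481 and 461 CPM in controls and 521, 542, 536 and 538 CPM at 2 weeks, apart, and Plvap, of fenestral diaphragms, averaged 712 ± 47.9 against 570.0 ± 93.5 CPM (SD, n = 4). Prx, an aerocyte capillary marker, was lower and apart (347 ± 16.1 against 446 ± 48.3 CPM, SD, n = 4). Hpgd, which degrades prostaglandins in general capillaries, averaged 779.9 ± 66.6 against 617 ± 97.2 CPM (SD, n = 4). In the pericyte and PDGF list, 2 of 16 were higher at that p, Pdgfb and Pdgfa, and 3 lower, Pdgfra, Kcnj8 and Mcam (list median -0.10). Pdgfb, the endothelial ligand, stood at 192, 158, 191 and 160.2 CPM in controls and 213, 224, 204 and 205 CPM at 2 weeks, above all controls, and Pdgfra, the fibroblast receptor, at 284, 287, 266 and 334 and 234, 214, 190.3 and 244 CPM, below them. Limma adjusted p was 0.393 and 0.269. Endothelin and renin-angiotensin genes had 0 of 9 higher and 1 lower at an unadjusted p under 0.05. The lower one was Agtr1a, the angiotensin receptor (-0.26 ± 0.12, log2, SE). Leukocyte adhesion genes had 0 of 14 in either direction at that p, and Icam1 averaged 498 ± 39.7 against 521 ± 31.6 CPM (SD, n = 4).

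Collagen and elastic fibre genes had 14 of 25 members higher by sign and a median of 0.03, but at an unadjusted p under 0.05 they had 0 higher and 3 lower, Postn, Col14a1 and Lox, which encode a matricellular protein, a fibril-associated collagen and the cross-linking oxidase. Postn averaged 317 ± 38.5 against 387 ± 49.1 CPM (SD, n = 4). Fibroblast genes had 0 of 19 higher and 3 lower at that p (Fgf10, Pdgfra and Col14a1, the last shared with the collagen list). Their list median was -0.16. The TGF-β list had 1 of 22 higher, Itgb6, and 3 lower at that p, against 5.72% and 3.52% of all genes. Tgfbi, a matrix target of the pathway, stood at 122, 112, 72.4 and 89.3 CPM in controls and 59, 62.8, 62.5 and 82.7 CPM at 2 weeks, with overlap through control replicate 3 and 2-week replicate 4, and Tgfbr1, the type I receptor, averaged 57.2 ± 9.76 against 72.5 ± 8.77 CPM (SD, n = 4). Timp3, the matrix-bound protease inhibitor, stood at 1618, 1647, 1639 and 2121 CPM in controls and 1373, 1425, 1232 and 1399 CPM at 2 weeks, without overlap.

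Alveolar type 1 genes had 3 of 13 higher at an unadjusted p under 0.05, against 5.72% of all genes. Igfbp2, a growth factor binding gene of mature type 1 cells, stood at 196, 209, 303 and 220.5 CPM in controls and 402, 302, 376 and 374 CPM at 2 weeks, overlapping by a single library on each side (0.66 ± 0.15, log2, SE, limma adjusted p = 0.208). Hopx averaged 852 ± 96.9 against 666 ± 90.6 CPM and the water channel gene Aqp5 379 ± 22.2 against 332 ± 40.9 CPM (SD, n = 4). Alveolar type 2 genes had 0 of 20 higher and 1 lower at an unadjusted p under 0.05, against 5.72% and 3.52% of all genes. At that p, club and secretory genes had 1 of 18 higher. Ciliated cell genes had 19 of 20 members higher, 3 of them at an unadjusted p under 0.05 (median 0.22). Ccdc39, an axonemal ruler gene, stood at 16.4, 14.4, 17 and 14.7 CPM in controls and 21.1, 23.6, 25.8 and 16.4 CPM at 2 weeks, with 2-week replicate 4 low. Without that library the count was 13, without 2-week replicate 1 it was 1, and without the 2 libraries with skeletal muscle transcripts it was 1. Among ion transport genes, 3 of 22 were higher and 3 lower at that p. Scnn1b, a subunit of the epithelial sodium channel, averaged 128 ± 15.7 against 105 ± 9.37 CPM, and Cftr, the chloride channel gene, 7.94 ± 0.939 against 10.1 ± 0.806 CPM (SD, n = 4).

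Macrophage markers were lower in most 2-week libraries, and single libraries set their counts. Alveolar macrophages clear surfactant and particles from the airspace. Of 19 alveolar macrophage genes, 18 were lower, 5 at an unadjusted p under 0.05 and 0 apart (median -0.53). The shares over all genes on the lower side were 3.52% and 1.95%. The list mean was 5.41, 5.29, 4.49 and 5.39 in control replicates 1 to 4 and 4.46, 4.55, 4.37 and 5.44 in 2-week replicates 1 to 4 (log2(CPM + 1)). Control replicate 3 thus stood with 2-week replicates 1 to 3, and 2-week replicate 4 with the other controls, while all 5-week libraries lay at 5.28 to 5.47. Itgax, which encodes CD11c, stood at 43.9, 43, 25.2 and 50.5 CPM in controls and 21.8, 21.6, 21.6 and 46.3 CPM at 2 weeks, and Mrc1, the mannose receptor, at 79.8, 95.5, 39.2 and 72.3 and 37.3, 38.8, 39.8 and 70.7 CPM. Leaving out control replicate 3 raised the count of 5 to 16, and leaving out 2-week replicate 4 or weighting the libraries gave 14. It was 0 without control replicate 1 or 2, without 2-week replicate 1, 2 or 3, or without the 2 libraries with skeletal muscle transcripts, and 1 without control replicate 4.

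Interstitial macrophages of the vessel and airway walls carry complement and scavenger genes. Of 18 markers, 6 were lower and 0 higher at an unadjusted p under 0.05, against 3.52% and 5.72% of all genes. On the lower side 2 were apart, against 1.95% of all genes, and the median was -0.35. Apoe, the lipid carrier, stood at 947, 1168, 804 and 716 CPM in controls and 623, 666, 628 and 676 CPM at 2 weeks, and Cd163, the haemoglobin scavenger receptor, at 19.8, 36.8, 13 and 18.6 and 11.1, 11.6, 10.4 and 12.2 CPM. Both were apart, with control replicate 2 the highest. Folr2 stood at 7.53, 18.2, 3.59 and 5.61 CPM in controls and 2.9, 3.42, 3.65 and 4.67 CPM at 2 weeks, again highest in control replicate 2, the library with adipocyte and skeletal muscle RNA. The count was 3 and the median -0.17 without the 2 libraries with skeletal muscle transcripts, 3 and -0.21 without control replicate 2, and 3 without 2-week replicate 1. With library weights the count was 11.

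Il1b, the cytokine in the title of the series, stood at 17.7, 7.81, 12 and 9.81 CPM in controls and 4.33, 7.86, 8.03 and 18.3 CPM at 2 weeks. The 2-week libraries enclosed the controls on both sides, and the difference was -0.37 ± 0.39 (log2, SE, limma adjusted p = 0.754). Its highest 2-week value was in replicate 4, where neutrophil markers were also highest of that group (list mean 3.47 against 2.64 to 2.71). Of 24 IL-1 family and inflammasome genes, 1 was higher and 2 lower at an unadjusted p under 0.05 (all genes 5.72% and 3.52%). Il33, an alarmin of epithelial and stromal nuclei, stood at 81.9, 92.7, 68.7 and 91.3 CPM in controls and 55.5, 54.5, 53.6 and 73.9 CPM at 2 weeks, overlapping through 2-week replicate 4 (-0.49 ± 0.12, log2, SE, limma adjusted p = 0.22). Il1rl1, its receptor ST2, stood at 5.37, 7.66, 4.91 and 6.44 CPM in controls and 3.86, 4.54, 3.42 and 4.71 CPM at 2 weeks, and here the groups were apart. Gsdmd, the pore-forming gasdermin of pyroptosis, averaged 34.2 ± 2.96 against 26.9 ± 4.54 CPM (SD, n = 4).

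The other immune lists had at most 2 members higher at an unadjusted p under 0.05, where 5.72% of all genes were higher and 3.52% lower. Chemokine and receptor genes had 0 of 30 higher and 3 lower at that p. The lower ones included Ccl22 and Ccl17, the ligands of CCR4 made by dendritic cells. Ccl17 stood at 6.26, 4.65, 6.72 and 5.33 CPM in controls and 2.74, 4.25, 3.29 and 4.38 CPM at 2 weeks, apart, and Ccl22 averaged 10.1 ± 2.89 against 15.7 ± 1.95 CPM (SD, n = 4). Without 2-week replicate 4 the count of lower chemokine genes was 9, and the list median was -0.05 without the libraries with skeletal muscle transcripts. Dendritic cell and MHC class II genes had 0 of 21 higher and 3 lower at that p (list median -0.18), and 9 lower without 2-week replicate 4. The 3 were Xcr1 and, shared with the chemokine list, Ccl22 and Ccl17. NF-κB feedback genes had 2 of 15 higher and 1 lower at that p. The higher ones were the prostaglandin synthase gene Ptgs2 (33.4 ± 3.14 against 25.6 ± 4.47 CPM, SD, n = 4) and the superoxide dismutase gene Sod2. Neutrophil genes had 2 of 13 higher, Cd177 and Ltf, and 1 lower at that p. By sign, 10 of the 13 were lower, where 55.1% of all genes were higher, and the list median was -0.28. Ltf stood at 31.4, 11.6, 11 and 6.24 CPM in 2-week replicates 1 to 4, against 6.75 ± 1.08 CPM in controls (SD, n = 4). Type I interferon-stimulated genes (23 tested), MHC class I genes (15), T cell genes (19), B cell genes (16), NK cell genes (16) and classical monocyte genes (13) had 0 in either direction at an unadjusted p under 0.05.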

How the data were processed

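Whole-lung RNA of 12 mice was sequenced, 4 mice in each of 3 groups. The authors deposited gene-level CPM, to which 0.0001 CPM was added in every cell. Per the submitters' processing notes, reads were processed with TopHat2 and Partek against mm10. Tool versions, annotation, strand settings and filtering steps are not given in the sources at hand. Overlapping, antisense and near-identical genes are therefore uncertain individually. Of 23058 nuclear genes also found in GENCODE M21 (GRCm38), 486 had the same start, so positions are printed as deposited, with ends as the stop minus 1. Between 87.8% and 88.6% of low values lay within 0.1 of a whole read, too few to recover counts, and no count model was fitted. The number of libraries limits the precision, and no counting interval is given.

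Genes averaging 1 CPM or more across all 12 libraries (15562 of 23127) were analysed as log2(CPM + 1). Limma 3.58.1 in R 4.3.3 fitted group means over all 12 libraries with a trend on expression, two-sided, with Benjamini-Hochberg adjustment at 0.05. The fit was tested on simulated data. Groups are called apart where all 4 libraries of one lie above all 4 of the other. The 64 gene lists, of 1080 genes, and the genes named were chosen with earlier results of these data known, and lists are described by counts and medians without a test. Named were the 15 higher and 15 lower genes with the smallest p, up to 6 members of each list at an unadjusted p under 0.05, the nitric oxide synthases and Il1b. Predicted genes were not named. A further gene that this rule names is not reported here. Replicate numbers follow accession order within a group. Between pairs of libraries, Pearson's r across genes was 0.9524 to 0.9946, and 0 pairs were identical. Control replicate 3 had a higher r with 2-week replicates 1 and 2 (0.9914 and 0.9917) than with other controls (0.9751 to 0.9897). Likewise 2-week replicate 4 had a higher r with 5-week replicates 1, 2 and 4 (0.9929 to 0.9935) than with its own group (0.9623 to 0.9848). Control replicates 1 and 4 had their highest r with 5-week replicate 2 (0.993 and 0.992), against at most 0.990 and 0.988 with other controls. By contrast, 2-week replicates 1 to 3 and control replicate 2 had their highest r within their own group. The 23 alternatives were other pseudocounts (0.1 and 5), other filters (none, or a mean of 10 CPM), library weights, quantile normalization, median-of-ratios scaling, robust and untrended variance moderation, a fit of the 8 libraries compared, each library left out, and both libraries with skeletal muscle transcripts left out. Promoter windows came from RefSeq (GRCm38.p6), and their coordinates cannot be set beside the deposited gene positions. Python 3.11.15, numpy 2.4.6, pandas 2.3.3 and matplotlib 3.10.9 were used for tallies and plots.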

Additional observations from a re-analysis of the deposited data

Results flagged for a closer look

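Among 522 groups of 4 libraries examined (list means and single genes, in controls and at 2 weeks), 40 (7.66%) held a library whose gap to its nearest neighbour exceeded Dixon's critical share of the range of the group. Chance gives about 1 in 20 for independent groups. These groups were not independent, because lists and their own members were both examined and single genes were chosen from these values. The share and the counts per library therefore hold overlapping flags. Control replicate 2 accounted for 14 of the 40 and 2-week replicate 4 for 11, against 1 to 5 for each of the others.

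In control replicate 2, list means (log2(CPM + 1)) stood high for skeletal muscle markers (5.02, others at most 0.94), plasma cells (5.23), PPAR targets and fatty acid oxidation (5.90) and NF-κB feedback genes (5.16), and low for arterial and venous endothelium (6.12). Its CPM stood high for Myh4 (15.6), Acta1 (139), Nos1 (0.952), Ighm (1049), Igkc (478) and Pnpla2 (322), and low for Fos (53.0), Egr1 (111.5) and Osgin1 (28.4). In 2-week replicate 3, skeletal muscle markers stood at 9.49 (others at most 1.30), Myh4 at 2749 CPM, Acta1 at 2389 CPM and Nos1 at 17.7 CPM, and the BMP list stood low at 6.46.

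In 2-week replicate 4, list means stood high for alveolar macrophages (5.44, others at most 4.55), neutrophils (3.47), T cells (2.86), NADPH oxidases (4.77) and the IL-1 family (3.87), and low for ciliated cells (4.49, others at least 4.98). Its CPM stood high for Itgax (46.3), Mrc1 (70.7), Atp6v0d2 (33.3), Fxyd5 (62.6) and Il33 (73.9). In control replicate 3, alveolar macrophage markers (4.49) and Cd300ld (5.25 CPM) stood low.

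In control replicate 4, the TGF-β list (6.58), Timp3 (2121 CPM) and Lef1 (14.6 CPM) stood high and Ankrd63 (16.3 CPM) low. In control replicate 1, the NR4A list stood low (4.75, others at least 5.42). At 2 weeks, Krt19 stood high in replicate 1 (233 CPM), and in replicate 2 Id1 stood high (134 CPM) and Hpgd low (680.2 CPM).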

How the results depend on the processing

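The count of genes past the adjusted threshold was 0 in the reported fit, 18 with library weights (6 higher, 12 lower, among them Adarb1, Jade2, Slc26a4, Glp1r, Fkbp5, Itgb6, Nr4a3, Map3k6, Klf10, Foxo3 and Zbtb16), and 0 to 24 when each library was left out in turn. The 24 (9 higher, 15 lower) came without 5-week replicate 3, the library with the lowest weight, 1 (Angptl4) came without control replicate 1, and the other alternatives gave 0. The count at an unadjusted p under 0.05 was 2466 with library weights, 743 without both libraries with skeletal muscle transcripts (chosen after seeing the data), and 943 to 2275 when each library was left out. The count of genes whose groups did not overlap was 1568 without both of those libraries and 1110 to 2278 when each library was left out, where fewer libraries overlap more rarely by construction. It was 374 higher and 439 lower after median-of-ratios scaling and 360 higher and 379 lower after quantile normalization. The cause of the other shifts was not tested. No paired analysis was possible because replicate numbers follow accession order and pair no mice. The 29 named genes with the smallest p kept their sign in 660 of 660 refits. Their groups do not overlap, so leaving out a library or changing the pseudocount could not reverse a sign. The count is therefore no support for these genes. Of 34 lists with a median of at least 0.1 in size, 6 changed sign under an alternative. These were cell cycle (0.01 without both libraries with skeletal muscle transcripts), classical monocytes (0.04 without control replicate 1), B cells (-0.08 with library weights, -0.04 without control replicate 3, -0.15 without 2-week replicate 4), adipocytes (0.05 without control replicate 2, 0.17 without both), cardiomyocytes (-0.12 without 2-week replicate 2) and skeletal muscle (-0.73 without 2-week replicate 3).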

Other observations

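Several lists outside the comparisons above are given here, where 5.72% of all genes were higher and 3.52% lower at an unadjusted p under 0.05. Potassium channel subunits had 1 of 19 higher and 3 lower at that p. The lower ones included Kcnk1 (15.3 ± 1.19 against 18.2 ± 1 CPM, SD, n = 4), a two-pore channel gene whose groups were apart. Cell cycle genes had 0 of 26 higher and 2 lower at that p. These were the kinetochore motor gene Cenpe (3.11, 4.34, 3.06 and 2.75 CPM in controls, 2.18, 1.71, 2.14 and 1.96 CPM at 2 weeks) and the mitotic kinase gene Aurkb, both apart. Of 7 lymphatic endothelial genes, Lyve1, a hyaluronan receptor, stood at 252, 389, 382 and 465 CPM in controls and 241, 209, 233 and 289 CPM at 2 weeks, with overlap. Of 22 unfolded protein response genes only Ddit3, the factor CHOP, was at an unadjusted p under 0.05 (14.9 ± 1.1 against 17.9 ± 2.56 CPM, SD, n = 4). Gata3, a factor of type 2 lymphocytes, averaged 26.9 ± 1.36 against 20.7 ± 4.89 CPM, and Krt19, an epithelial and mesothelial keratin, 196 ± 24.7 against 161 ± 17.8 CPM (SD, n = 4). Cardiomyocyte markers, which the muscle sleeve of pulmonary veins carries in mice, summed to between 618 and 2345 CPM at 2 weeks and between 771 and 1443 CPM in controls, and Myh6, the adult atrial and ventricular myosin, stood at 553, 1059, 478 and 204 CPM in 2-week replicates 1 to 4.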
